A study of Mus musculus with 4 samples.

Results

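Messenger RNA of 40 genes of fatty acid oxidation and of the response to PPAR alpha was followed in kidney and heart of septic mice with and without melatonin (MLT). The genes were taken by symbol from the 55401 gene identifiers counted in every library, and each symbol matched 1 identifier. There were 4 libraries, 1 each from CLP kidney, CLP+MLT kidney, CLP heart and CLP+MLT heart, all from C57BL/6 mice without any genetic change. All 4 groups had cecal ligation and puncture (CLP), an operation that lets gut bacteria leak into the abdomen and causes sepsis, so no library came from an animal without sepsis. For the kidneys, the study used male mice of 8 weeks that had the operation on day 15 and were dissected 24 h later. Over the 14 days before it, the CLP+MLT group drank water with melatonin at 25 µg/ml in dilute ethanol. Ethanol alone is stated for mice without CLP, and the drinking water of the CLP group is not described. The sources used here give no age, dose or time for the hearts, nor do they say whether a library held 1 mouse or a pool. The titles of the melatonin samples read CLP+MLT4, and the number in them is not explained. With 1 library per group, the melatonin ratios below have no replicate check and no test, and their intervals cover counting error only.

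Fatty acids are taken up by transport proteins, joined to coenzyme A, passed into mitochondria as carnitine esters and shortened there step by step, which feeds electrons to the respiratory chain. Very long and branched chains are shortened first in peroxisomes. PPAR alpha is a nuclear receptor that binds fatty acids and, with its partner RXR, switches on many of these genes during fasting. The proximal tubule of the kidney and heart muscle both draw most of their energy from this pathway.

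Reads counted on genes ranged from 15883057 to 22927905 per library. The mitochondrial genome took 14.8% and 24.2% of them in CLP and CLP+MLT kidney and 31.6% and 36.0% in CLP and CLP+MLT heart. Defining markers fitted the organ labels, with 12 cardiomyocyte markers summing to 41483 and 30100 CPM (counts per 1e+06 scaled counts) in the hearts and 16.6 and 20.7 in the kidneys, although the atrial gene Myl7 had 1 and 0 counts in the hearts. The 12 proximal tubule markers summed to 19996 and 30164 CPM in the kidneys and to 416 and 924 in the hearts. In heart these markers stood at a median of 3.17% (0.730% to 9.22%) of their kidney level for CLP and 5.23% (1.35% to 34.9%) for CLP+MLT, and values for kidney-rich genes in heart are given beside these shares below. In such bulk samples, fewer cells of a type and less RNA per cell cannot be told apart.

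The 40 genes together took 1.34% of the gene counts in CLP kidney, 1.15% in CLP+MLT kidney, 0.769% in CLP heart and 0.577% in CLP+MLT heart. Without the mitochondrial genome the shares were 1.58%, 1.52%, 1.13% and 0.902%, in the same order. Levels between genes were compared as CPM, scaled by the TMM method over the 4 libraries, per kilobase of transcript (CPM per kb). The highest level in kidney was that of Slc27a2, which moves very long chain fatty acids and joins them to coenzyme A, at 907 CPM per kb for CLP and 1428 for CLP+MLT. It was followed by the peroxisomal thiolase Acaa1b at 427 and 400 CPM per kb. Ehhadh, the peroxisomal bifunctional enzyme, stood at 301 and 189 CPM per kb, and Acadm, the medium-chain acyl-CoA dehydrogenase, at 264 and 301, so the order of these neighbours differed between the kidney libraries. In heart the fatty acid binding protein Fabp3 led with 1342 CPM per kb for CLP and 588 for CLP+MLT. The uptake receptor Cd36 came next at 310 and 293 CPM per kb, and the transporter Slc27a1 at 286 and 248. The receptor gene Ppara itself was near the bottom in every library, between 0.594 and 1.57 CPM per kb.

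**Figure D1:**
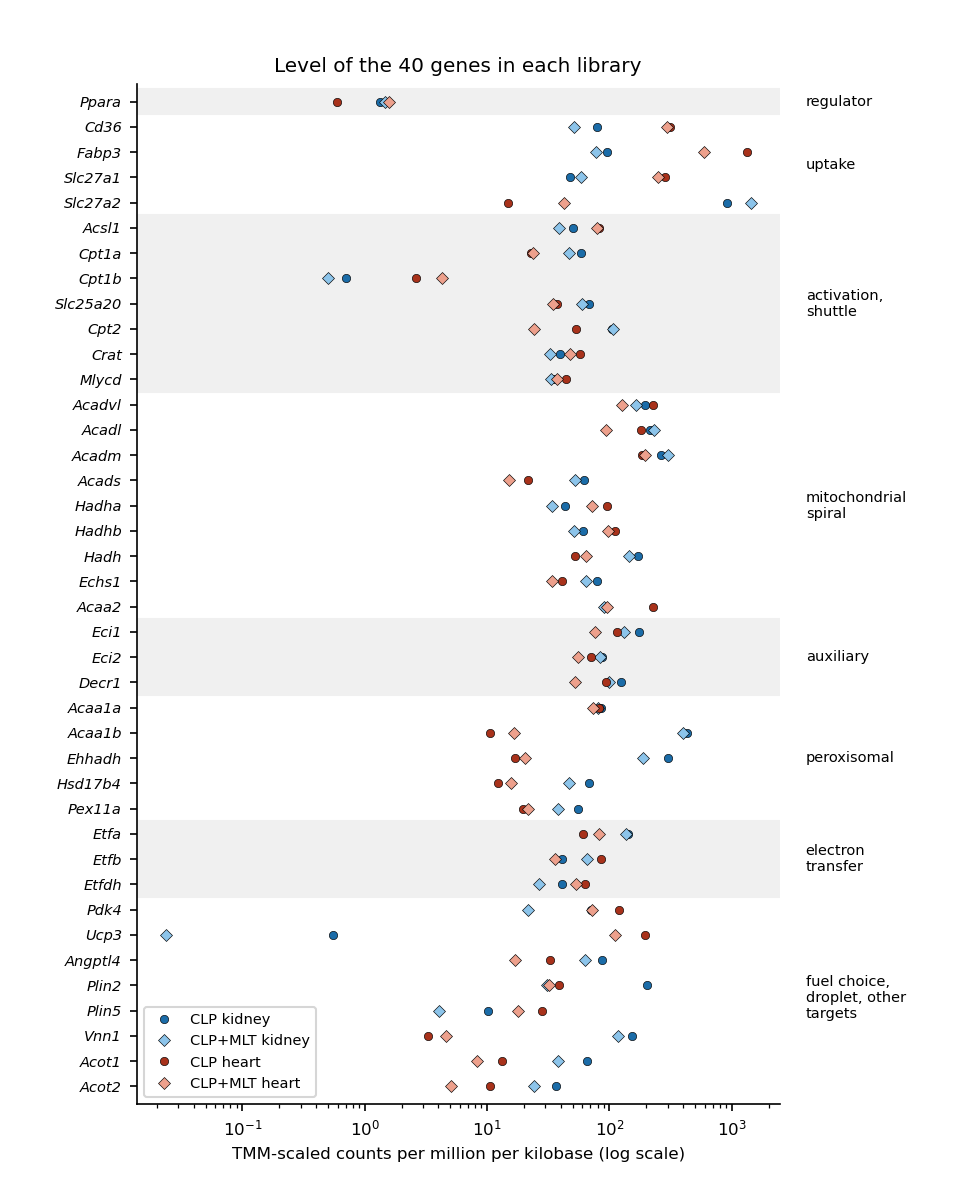
Level of each of the 40 genes in each of the 4 libraries, as TMM-scaled CPM per kilobase on a log axis, grouped by role; each point is 1 library. Ppara and Cpt1b lie below 5 CPM per kb in all libraries, and Ucp3 spans from 0.0237 in CLP+MLT kidney to 195 in CLP heart.

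In kidney, CLP+MLT was compared with CLP to see how the fatty acid genes stood after melatonin. Plin2, a lipid droplet gene, was 6.56-fold lower with melatonin, Pdk4, a kinase that spares glucose, 3.27-fold and Plin5, another droplet gene, 2.48-fold. None of the 9 genes of the mitochondrial spiral differed by 1.5-fold. Of the 40 genes, 32 were lower and 8 higher, with a median log2 ratio of −0.29 against 0.0029 over the 16932 genes whose mean was 10 counts or more. Scaling by library size alone moved the median of all genes to −0.19 and that of the 40 genes to −0.49, and then 37 were lower and 3 higher. At least 1.5-fold lower were 8 genes, Cd36, Ehhadh, Etfdh, Pdk4, Ucp3, Plin2, Plin5 and Acot1, which is 8 of 40 where 11.6% of all genes passed in that direction. Higher by that much were Slc27a2 and Etfb, 2 of 40 where 11.0% of all genes passed. The counting interval lay wholly beyond 1.5-fold for 6 of the lower genes (3.4% of all genes) and for 1 higher gene, Slc27a2 (3.57% of all genes). Acot2 lay just outside the 1.5-fold, at 1.49-fold lower.

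Plin2 (chromosome 4, 86648386 to 86670060, minus strand, mm10) encodes the coat protein found on lipid droplets in most cells, and it was the gene with the most counts behind a large difference. It had 10595 counts in CLP kidney and 1014 in CLP+MLT kidney, or 386 and 58.7 CPM. The log2 ratio was −2.71 (95% counting interval −2.81 to −2.62). The CLP kidney stood apart from the other 3 libraries, since CLP heart was at 73.7 CPM and CLP+MLT heart at 60.5.

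Plin5, a droplet protein that ties droplets to mitochondria, was at 20.1 CPM in CLP kidney and 8.05 in CLP+MLT kidney, a log2 ratio of −1.31 (−1.59 to −1.04). Fat cells carry droplet proteins too, and among 8 white adipocyte markers Adipoq, Lep and Retn were at 0 counts in both kidney libraries. The 8 markers summed to 118 CPM in CLP kidney and 89.2 in CLP+MLT kidney. The droplet genes of that list were lower with melatonin too, Plin1 from 33 counts to 1, Plin4 from 879 to 243 and Cidec from 32 to 8. The part of fat cells in the Plin2 and Plin5 values was not tested.

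Pdk4 (chromosome 6, 5483351 to 5496309, minus strand) encodes a kinase that shuts off pyruvate dehydrogenase and so spares glucose when fat is burned. It had 6729 counts in CLP kidney and 1290 in CLP+MLT kidney, or 245 and 74.7 CPM, a log2 ratio of −1.71 (−1.80 to −1.62). Ucp3, an uncoupling protein of muscle mitochondria, had only 37 counts in CLP kidney and 1 in CLP+MLT kidney, so its log2 ratio of −4.09 has an interval from −9.88 to −1.97. The thioesterase Acot1, which frees fatty acids from coenzyme A in the cytosol, was at 148 and 86.6 CPM with a log2 ratio of −0.77 (−0.86 to −0.69). Its mitochondrial relative Acot2 was at 80.1 and 53.5 CPM with −0.58 (−0.69 to −0.47). Acot2 shares 17.1% of its 100-base windows with Acot1, so reads may be split between the pair. The other targets were lower by less. Angptl4, a secreted inhibitor of lipoprotein lipase, was at 290 and 209 CPM with a log2 ratio of −0.47. Vnn1, a pantetheinase, was at 370 and 284 CPM with −0.38. All 8 genes of this group were thus lower in CLP+MLT kidney. Library size scaling moves every kidney ratio down, so it could not have changed this count.

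All 5 peroxisomal genes were lower in CLP+MLT kidney, with a median log2 ratio of −0.54. Ehhadh was at 898 CPM in CLP kidney and 564 in CLP+MLT kidney, a log2 ratio of −0.67 (−0.70 to −0.63). Hsd17b4, the other bifunctional enzyme, was at 182 and 125 CPM with −0.54. Pex11a, which helps peroxisomes to divide, was at 124 and 84.7 CPM with −0.54. The thiolases Acaa1a and Acaa1b differed little, with log2 ratios of −0.07 and −0.09. These thiolases share reads in part, since 19.3% of the 100-base windows of Acaa1b also occur in Acaa1a.

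Among the uptake genes, the kidney libraries differed in both directions. Slc27a2 (chromosome 2, 126552407 to 126588243, plus strand) was at 2646 CPM in CLP kidney and 4167 in CLP+MLT kidney, a log2 ratio of 0.66 (0.64 to 0.67), and it was below the 1.5-fold (0.46) with library size scaling. Slc27a2 is normally made in the proximal tubule, whose markers went both ways between these libraries, 9 of 12 higher and 3 lower, from −3.31 for Slc5a12 to 2.24 for Slc7a13. Their part in the Slc27a2 value was not tested. Cd36 was at 268 and 174 CPM with a log2 ratio of −0.62 (−0.68 to −0.56), an interval that includes the 1.5-fold. Fabp3 was at 78.6 and 64.3 CPM with −0.29, and Slc27a1 at 132 and 164 CPM with 0.32.

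None of the 7 genes for activation and the carnitine shuttle passed the 1.5-fold in kidney. Cpt1a, the outer membrane carnitine palmitoyltransferase that sets the pace of entry, was at 254 CPM in CLP kidney and 203 in CLP+MLT kidney, a log2 ratio of −0.32 (−0.38 to −0.26). Its muscle form Cpt1b had 56 and 25 counts and a log2 ratio of −0.49 with a wide interval (−1.23 to 0.21). Cpt2, the inner membrane enzyme, was at 251 and 255 CPM with 0.02. Acsl1, which joins long chains to coenzyme A, stood at −0.38, and the other genes of the group, Slc25a20, Crat and Mlycd, between −0.26 and −0.10.

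Each turn of the mitochondrial spiral runs through a dehydrogenase, a hydratase, a hydroxyacyl dehydrogenase and a thiolase. Its 9 genes had log2 ratios from −0.37 for Hadha to 0.19 for Acadm in kidney, with a median of −0.22, and none reached the 1.5-fold. Acadl was at 409 CPM in CLP kidney and 441 in CLP+MLT kidney, Acadm at 541 and 616, and Acaa2 at 138 in both. Acadvl was at 426 and 356 CPM, Hadha at 176 and 135, Hadhb at 124 and 106, Hadh at 305 and 260, Echs1 at 123 and 99.3 and Acads at 115 and 98.6. Acadl, Acadm and Acaa2 were thus level or slightly higher, and the other 6 genes slightly lower. The 3 auxiliary enzymes for unsaturated chains, Eci1, Eci2 and Decr1, were lower by −0.41, −0.04 and −0.33 on the log2 scale. Electron transfer flavoprotein carries electrons from the spiral to ubiquinone, and its genes differed in direction. Etfa was at 196 and 189 CPM. Etfb (chromosome 7, 43444083 to 43457800, plus strand) was at 36.2 CPM in CLP kidney and 58.9 in CLP+MLT kidney, a log2 ratio of 0.70 (0.58 to 0.83), an interval that reaches the 1.5-fold, and it was below the 1.5-fold (0.51) with library size scaling. Etfdh, the oxidoreductase that receives the electrons, was at 97.7 and 62.7 CPM with −0.64 (−0.74 to −0.54). Ppara (chromosome 15, 85734983 to 85802819, plus strand) was near level in kidney, at 126 and 87 counts with a log2 ratio of 0.14 (−0.27 to 0.54).

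**Figure D2:**
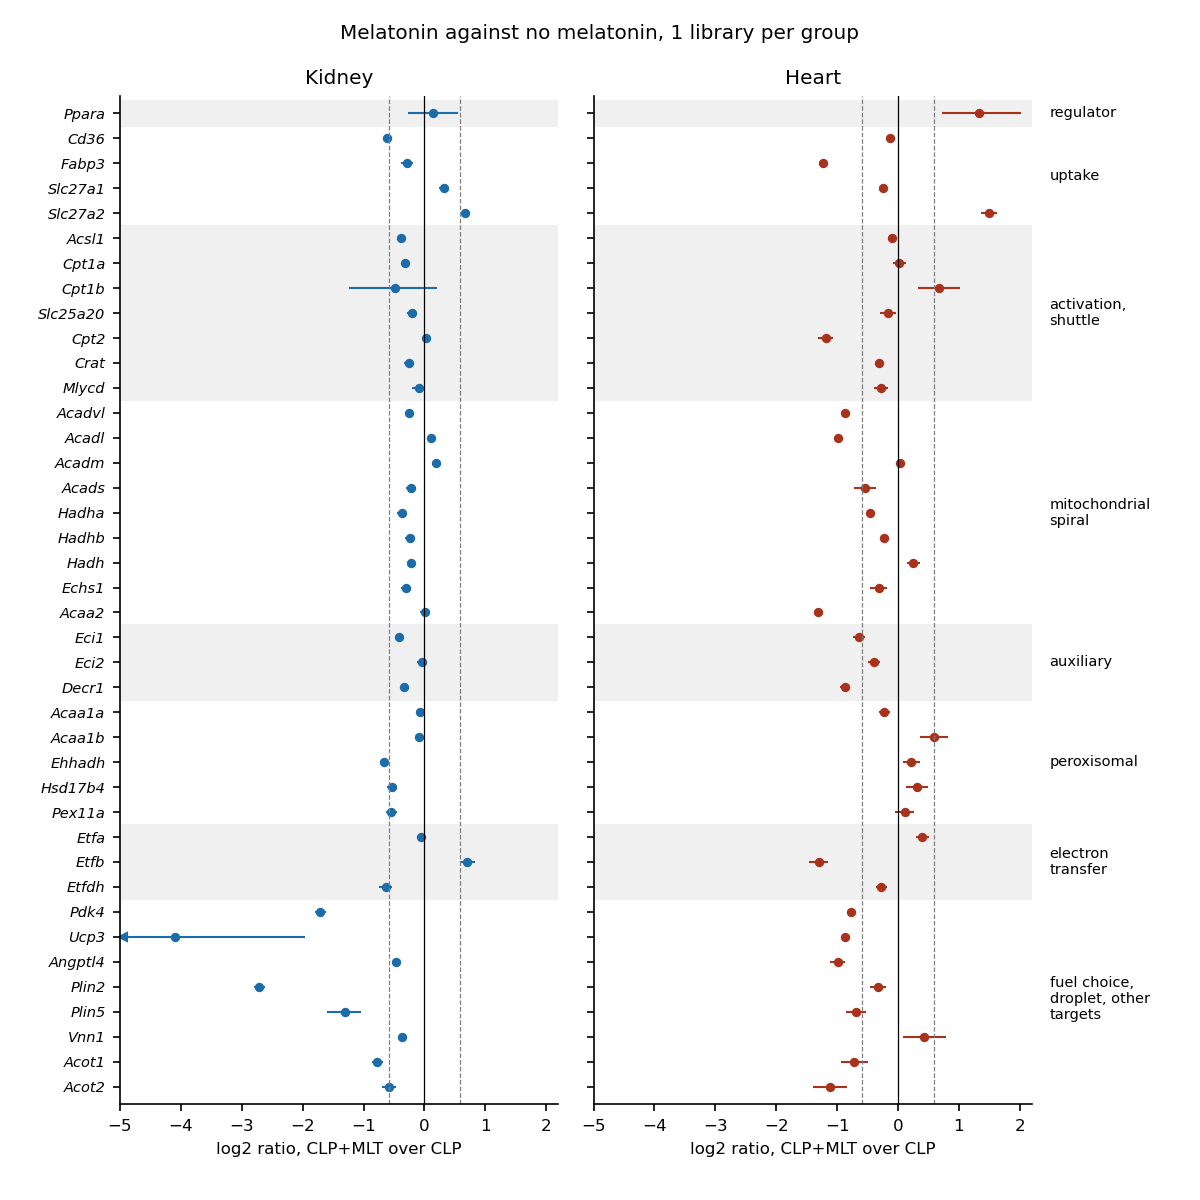
Log2 ratio of CLP+MLT over CLP for each of the 40 genes in kidney (left) and heart (right), 1 library per group; bars are 95% counting intervals, dashed lines mark 1.5-fold, and the arrow marks an interval that runs on to −9.88. In kidney the points far to the left are Ucp3, Plin2, Pdk4 and Plin5, whereas in heart Acaa2, Etfb, Fabp3 and Cpt2 lie farthest to the left and Slc27a2 and Ppara to the right.

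In heart, where the same comparison was made, Acaa2, Etfb, Fabp3 and Cpt2 were the genes farthest lower with melatonin, from 2.27-fold to 2.47-fold, and Slc27a2 and Ppara the farthest higher, 2.82-fold and 2.53-fold. Of the 40 genes, 28 were lower and 12 higher in CLP+MLT heart, with a median log2 ratio of −0.29 against 0.0023 over 15871 genes. At least 1.5-fold lower were 14 of 40, where 12.6% of all genes passed in that direction, and 4 of 40 were higher, where 10.9% of all genes passed. The interval lay wholly beyond 1.5-fold for 11 lower genes (4.45% of all genes) and for 2 higher genes, Ppara and Slc27a2 (2.89% of all genes).

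Fabp3 (chromosome 4, 130308595 to 130315463, plus strand), the abundant carrier of fatty acids in the cytosol of heart muscle, was at 1104 CPM in CLP heart and 484 in CLP+MLT heart, a log2 ratio of −1.24 (−1.28 to −1.20). Part of the gene (9.84% of its exon bases) overlaps Zcchc17 on the other strand, which had 1690 and 511 counts in the hearts. Cpt2 was at 127 and 57.5 CPM with a log2 ratio of −1.19 (−1.31 to −1.07). The receptor Cd36 differed little in heart, at 1054 and 996 CPM with −0.13, as did Slc27a1, at 800 and 694 CPM with −0.25. Acsl1 was at 321 and 310 CPM, the carnitine carrier Slc25a20 at 66.7 and 61.2, the acetyltransferase Crat at 243 and 202, and Mlycd, which clears the inhibitor malonyl-CoA, at 93.1 and 79.4, with log2 ratios between −0.31 and −0.10. In contrast to Cpt2, Cpt1a was level at 98.2 and 103 CPM, a log2 ratio of 0.02 (−0.08 to 0.13). Cpt1b, the form that heart muscle is known for, had only 112 and 177 counts in the hearts, a log2 ratio of 0.67 (0.32 to 1.02). An annotated read-through gene covers 81.4% of the exon bases of Cpt1b on the same strand, and it had 0 counts in all 4 libraries. The Cpt1b level is therefore uncertain, since the counting may have set aside reads that fall on both.

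Within the spiral, 3 of 9 genes were at least 1.5-fold lower in heart and none was higher by that much. Acaa2, the mitochondrial thiolase that makes the last cut, was at 344 CPM in CLP heart and 144 in CLP+MLT heart, a log2 ratio of −1.31 (−1.38 to −1.23). Acadl, the long-chain acyl-CoA dehydrogenase, was at 345 and 180 CPM with −0.98 (−1.05 to −0.91). The very long chain dehydrogenase Acadvl was at 490 and 276 CPM with −0.87 (−0.93 to −0.82). Dvl2 on the opposite strand overlaps 42.9% of the exon bases of Acadvl and had 5890 and 2803 counts in the hearts, so with the strand setting unknown the 2 genes cannot be told apart there. Acadm did not follow the longer-chain enzymes, at 377 and 398 CPM with a log2 ratio of 0.03. The trifunctional protein genes Hadha and Hadhb, whose start sites lie 86 bases apart on chromosome 5, were at −0.46 and −0.23, Acads at −0.54, Echs1 at −0.32 and Hadh at 0.25.

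The auxiliary enzymes were lower in heart as well, Decr1 at 276 and 156 CPM with a log2 ratio of −0.87, Eci1 at 131 and 86.8 CPM with −0.64 and Eci2 at 123 and 96.2 CPM with −0.40. Etfb was at 76.0 CPM in CLP heart and 31.8 in CLP+MLT heart, a log2 ratio of −1.30 (−1.47 to −1.15), opposite to its ratio in kidney. A read-through gene with 0 counts covers 53.0% of its exon bases on the same strand. Its partner Etfa was at 84.5 and 115 CPM with 0.39, so the genes for both subunits of 1 protein went in opposite directions in heart.

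In the fuel choice and droplet group, 7 of 8 genes were lower in heart and 6 by at least 1.5-fold, with a median log2 ratio of −0.75. Ucp3, which is rich in heart, had 7048 and 3832 counts, or 476 and 269 CPM, a log2 ratio of −0.87 (−0.93 to −0.81). Pdk4 was at 419 and 252 CPM with −0.78 (−0.84 to −0.72), Angptl4 at 108 and 56.1 CPM with −0.99 and Plin5 at 55.4 and 35.5 CPM with −0.69. Acot2 was at −1.12 and Acot1 at −0.72. Plin2 differed by less, at 73.7 and 60.5 CPM with a log2 ratio of −0.33 (−0.46 to −0.20).

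Ppara was higher in heart, with 30 counts in CLP and 76 in CLP+MLT, or 2.03 and 5.34 CPM, a log2 ratio of 1.34 (0.72 to 2.01). The counts are few, which the width of the interval shows. Slc27a2 was at 42.9 CPM in CLP heart and 125 in CLP+MLT heart, a log2 ratio of 1.50 (1.37 to 1.63). These were 1.62% and 3.00% of its kidney levels, within the range that the proximal tubule markers showed in the same hearts. Acaa1b, at 2.48% and 4.15% of its kidney levels, and Vnn1, at 2.16% and 3.91%, lay in that range too. When kidney RNA was taken off the heart counts at the median share of the markers, Slc27a2, Acaa1b and Vnn1 were left with a mean under 10 counts and had no ratio. That setting was chosen after the data were seen, and the part of kidney RNA in these values was not tested. The peroxisomal genes had a median of 0.22 in heart with 4 of 5 higher. Ehhadh was at 50.4 CPM in CLP heart and 60.5 in CLP+MLT heart (0.22), or 5.62% and 10.7% of its kidney level. Hsd17b4 was at 32.7 and 41.9 CPM (0.31), Pex11a at 43.7 and 48.7 (0.11) and Acaa1b at 17.9 and 28.0 (0.60), while Acaa1a was at 146 and 129 (−0.22).

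Cardiomyocyte markers differed between the hearts as well, 4 of 11 kept higher and 7 lower, from −1.46 to 0.47 with a median of −0.39. For 5 genes listed as brown adipocyte markers the sum was 384 CPM in CLP heart and 112 in CLP+MLT heart. Most of it was Cox8b, at 327 and 94.8 CPM, and Cidea, at 53.9 and 15.6 CPM. Ucp1 had 1 count in each heart, and Elovl3 had 3 and 0. The sum thus rests mostly on Cox8b and Cidea and need not measure brown fat cells. The part of either cell type in the lower values of heart was not tested.

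The melatonin ratios of both organs were then set side by side. At least 1.5-fold lower in both were 4 of 40 genes, Pdk4, Ucp3, Plin5 and Acot1, where 1.67% of 14592 genes did so. Lower by that much in kidney and higher in heart were 0 of 40, where 1.36% of all genes were. The heart ratio minus the kidney ratio had a median of 0.019 over the 40 genes and of −0.0081 over all genes. It was at least 1.5-fold higher in heart for 12 genes (16.3% of all genes) and lower for 6 (16.8% of all genes), with no test. By role, the difference was past 1.5-fold towards heart for 4 of 5 peroxisomal genes and 5 of 8 fuel choice and droplet genes. Of these, Pdk4, Ucp3, Plin2 and Plin5 were lower with melatonin in both organs, and less so in heart. The kidney ratio of Ucp3 rests on 37 and 1 counts. The heart levels of Acaa1b, Ehhadh and Vnn1 lay within the range of the proximal tubule markers. It was past 1.5-fold towards kidney for 3 of 9 spiral genes, with differences of −1.31 for Acaa2, −1.09 for Acadl and −0.62 for Acadvl. Plin2 had a difference of 2.38 and Etfb of −2.01.

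Promoters are shown for the 3 genes with the largest log2 ratios between the kidney libraries in either direction, Ucp3, Plin2 and Pdk4, and were searched for the hexamer AGGTCA, the core that nuclear receptors such as PPAR alpha read. The 250 bases before the RefSeq start are written 5′ to 3′ on the gene's strand (GRCm38.p6), with AGGTCA or its reverse complement TGACCT in capitals. They lie at chr4:86670060-86670309 (minus strand) for Plin2, chr7:100472741-100472990 (plus strand) for Ucp3 and chr6:5496279-5496528 (minus strand) for Pdk4.

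Plin2: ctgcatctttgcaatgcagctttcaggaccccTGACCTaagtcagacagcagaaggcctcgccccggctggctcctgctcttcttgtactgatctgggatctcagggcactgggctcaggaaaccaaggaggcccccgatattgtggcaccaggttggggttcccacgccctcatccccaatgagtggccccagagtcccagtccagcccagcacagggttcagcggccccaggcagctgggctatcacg
Ucp3: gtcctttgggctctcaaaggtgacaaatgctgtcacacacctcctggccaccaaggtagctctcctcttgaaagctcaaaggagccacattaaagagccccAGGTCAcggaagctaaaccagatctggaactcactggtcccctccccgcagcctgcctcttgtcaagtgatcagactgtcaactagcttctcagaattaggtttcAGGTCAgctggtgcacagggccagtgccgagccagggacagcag
Pdk4: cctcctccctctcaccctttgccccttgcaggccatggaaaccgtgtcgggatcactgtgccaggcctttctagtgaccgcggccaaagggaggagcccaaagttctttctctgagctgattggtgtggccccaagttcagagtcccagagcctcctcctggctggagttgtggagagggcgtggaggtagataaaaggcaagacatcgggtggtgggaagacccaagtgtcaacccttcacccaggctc

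The hexamer begins 218 bases upstream of the start in Plin2 and 149 and 44 bases upstream in Ucp3, and these letters are not in the Pdk4 window. It occurred on either strand in 9 of the 33 genes of the list that had a window, Acadm, Acadvl, Cd36, Cpt1a, Echs1, Plin2, Plin5, Slc27a2 and Ucp3, and in 15.8% of 27025 genes. The longer form AGGTCANAGG, which contains the hexamer, was found in 1 gene of the list, Slc27a2, and in 0.662% of all genes. The full direct repeat AGGTCANAGGTCA, which contains both, was found in 0 of the 33 and in 0.0407% of all genes. Such a match is a string of letters and says nothing of binding.

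Kidney was compared with heart in a fit over the 4 libraries with treatment as a term, by the quasi-likelihood test of edgeR with Benjamini-Hochberg adjustment over 17088 genes. Genes of most roles were found on both sides. Of the peroxisomal genes 4 of 5 and the very long chain transporter Slc27a2 were higher in kidney, whereas Ucp3, the uptake genes Fabp3, Cd36 and Slc27a1 and the trifunctional protein genes were higher in heart. Of the 40 genes, 17 were higher in kidney, where 29.9% of all genes were, and 11 were higher in heart, where 28.4% were. In either direction 28 of 40 passed, against 58.3% of all genes, and the other 12 did not pass the threshold of 0.05. The spread of each gene rested on 1 residual degree of freedom, which edgeR pooled with the spread of the other genes tested. On the same side in the CLP pair and in the CLP+MLT pair were 36 of 40 genes.

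Slc27a2 was at 2646 and 4167 CPM in the kidneys and at 42.9 and 125 in the hearts, 45.3-fold higher in kidney (log2 5.50 ± 0.49 SE, edgeR adjusted p = 7.5e-06). Vnn1 was at 370 and 284 CPM against 7.98 and 11.1, or 34.3-fold higher (edgeR adjusted p = 9.0e-07). Acaa1b was at 722 and 675 CPM against 17.9 and 28.0, or 31.1-fold higher (edgeR adjusted p = 1.6e-06), and 11.4% of its exon bases overlap Dlec1 on the other strand. Ehhadh was 12.9-fold higher in kidney and Hsd17b4 4.07-fold (edgeR adjusted p = 1.2e-05 and 0.00012). In all 5 of these genes both kidneys lay above both hearts. The heart levels of Slc27a2, Vnn1 and Acaa1b lay within the range of the proximal tubule markers given above, and the part of kidney RNA in them was not tested. Acaa1a, the near copy of Acaa1b, did not pass, at 151 and 143 CPM in kidney and 146 and 129 in heart (edgeR adjusted p = 0.73). The thioesterases were higher in kidney too, Acot1 by 4.79-fold and Acot2 by 4.07-fold. Angptl4 was 3.16-fold higher, the short-chain dehydrogenase Acads 3.15-fold, Cpt2 2.96-fold and Hadh, the short-chain hydroxyacyl dehydrogenase, 2.74-fold. The other genes higher in kidney, Cpt1a, Pex11a, Etfa, Echs1, Slc25a20 and Eci1, were so by 1.61-fold to 2.26-fold. The call for Eci1 did not hold without CLP kidney (log2 0.45), CLP+MLT kidney (0.86) or CLP+MLT heart (0.40), and that for Etfa without CLP heart (0.75, edgeR adjusted p = 0.054).

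Heart held far more Ucp3, with 7048 and 3832 counts against 37 and 1, a log2 ratio of kidney over heart of −9.18 ± 0.57 SE (edgeR adjusted p = 7.9e-07). Fabp3 was at 1104 and 484 CPM in heart and 78.6 and 64.3 in kidney, 10.3-fold higher in heart (edgeR adjusted p = 2.1e-05). Cpt1b was 5.50-fold, Slc27a1 5.06-fold and Cd36 4.74-fold higher in heart. Plin5 was 3.45-fold higher, Pdk4 2.40-fold, Hadha 2.17-fold, Hadhb 1.86-fold, Acsl1 1.84-fold and Etfdh 1.77-fold. The Pdk4 call did not hold without CLP+MLT kidney (log2 −0.45, edgeR adjusted p = 0.34) or without CLP heart (log2 −0.66, edgeR adjusted p = 0.31). Without CLP+MLT kidney, 7 genes in place of 11 were higher in heart, with Acsl1 at −0.69, Hadhb at −0.78 and Etfdh at −0.51 no longer past the threshold. The Etfdh call was also lost without CLP heart (−0.67).

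The carnitine palmitoyltransferases thus split between the organs, with the Cpt1a form at 254 and 203 CPM in kidney and 98.2 and 103 in heart, and Cpt1b at 2.04 and 1.45 against 7.57 and 12.4. Even in heart the level of Cpt1a was above that of Cpt1b, 22.7 and 23.9 against 2.62 and 4.30 CPM per kb, with the read-through gene named above on most of Cpt1b.

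Among the 12 genes that did not pass, 4 lay on different sides in the 2 treatments. Plin2 was higher in kidney in the CLP pair (log2 2.39) and level in the CLP+MLT pair (−0.04), for a fitted log2 of 1.18 ± 0.49 SE (edgeR adjusted p = 0.061). Etfb was at −1.07 in the CLP pair and 0.89 in the CLP+MLT pair. Ppara was at 1.17 and −0.08, and Acadvl at −0.20 and 0.37. The remaining 8, Acadl, Acadm, Acaa1a, Acaa2, Crat, Decr1, Eci2 and Mlycd, had fitted log2 ratios from −0.69 for Acaa2 to 0.77 for Acadl. With all 4 libraries, Plin2, Acadl, Acadm, Eci2 and Decr1 passed the edgeR test by library size scaling, Plin2 and Decr1 by upper quartile scaling, Plin2, Acadl and Acaa2 with no filter, and Crat passed by DESeq2 (adjusted p = 0.044). With a library left out, the edgeR test was passed by Plin2 without CLP+MLT kidney (2.52, adjusted p = 0.00019), by Acaa2 without CLP+MLT heart (−1.32, adjusted p = 0.0031), and by Acadl and Decr1 without CLP heart (1.24 and 1.08, adjusted p = 0.013 and 0.021).

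**Figure D3:**
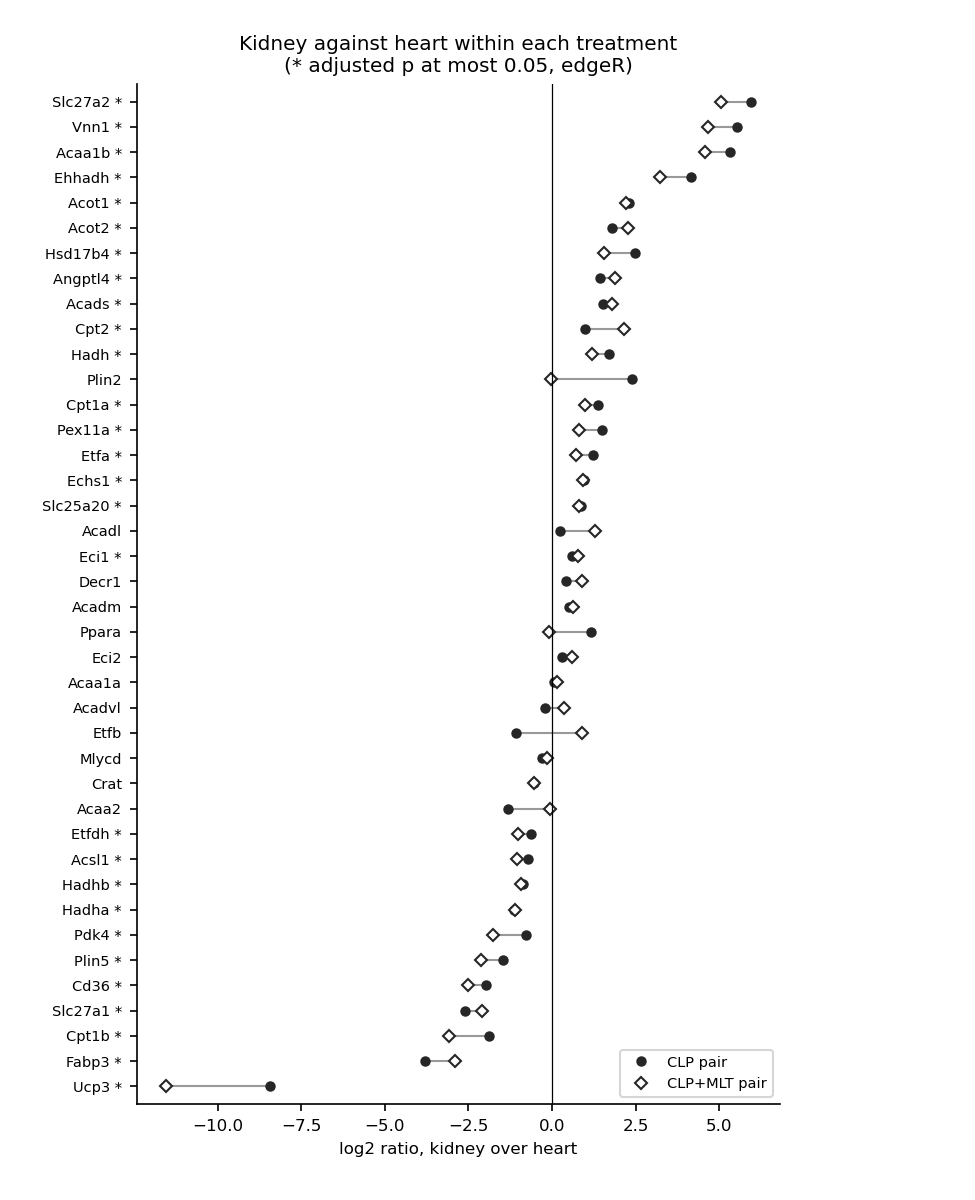
Log2 ratio of kidney over heart for each of the 40 genes in the CLP pair (filled) and in the CLP+MLT pair (open), 1 library per point; asterisks mark genes with an edgeR adjusted p of at most 0.05. Slc27a2, Vnn1, Acaa1b and Ehhadh lie above 3 in both pairs, Ucp3 lies below −8, and Plin2, Etfb, Ppara and Acadvl have points on both sides of 0.

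Other genes of the pathway were taken from lists of names. Of 28 further PPAR alpha targets and ketone body genes kept in kidney, 7 were at least 1.5-fold lower and 2 higher. The shares of all genes were 11.6% and 11.0%, and the median log2 ratio of the list was −0.21. Fgf21, a fasting hormone, had 36 counts in CLP kidney and 1 in CLP+MLT kidney (log2 ratio −4.05, interval −9.84 to −1.93). The peroxisomal transporter Abcd3 was at −0.83. The thioesterase Acot3 was higher at 1.03 (0.87 to 1.20). In heart, 5 of 26 genes of this list were higher and 3 lower (10.9% and 12.6% of all genes), with a median of 0.043. Of these, Cyp4a10 was at 1.27 and Cyp4a31 at 1.14. They stood at 1.58% and 1.50% of their kidney levels in CLP and at 3.23% and 3.44% in CLP+MLT. All 5 higher genes lay within the range of the proximal tubule markers in the same hearts. The part of kidney RNA in them was not tested. Ech1, an auxiliary isomerase, was lower at −1.03. The Cyp4a genes are near copies, so reads may be split among them.

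Of 16 partners and coregulators of the receptor kept in kidney, 0 passed the 1.5-fold in either direction. In heart 2 of 17 were higher and 1 lower (10.9% and 12.6% of all genes). Ppargc1b, a coactivator of oxidative genes, had 56 and 121 counts there with a log2 ratio of 1.11 (0.65 to 1.61). Fatty acid synthesis and storage genes had medians of −0.16 in kidney and −0.36 in heart, and Pnpla2, the droplet lipase, was at −0.999 in heart. The pathways that take up the products of oxidation differed between the organs. TCA cycle genes had a median of −0.098 in kidney, with 0 of 18 past 1.5-fold. In heart their median was −0.32, with 5 of 18 lower (12.6% of all genes). For 25 nuclear genes of the respiratory chain the median was 0.23 in kidney, with 3 higher (11.0% of all genes). In heart it was −1.09, with 21 lower (12.6% of all genes). The trend of the ratios with gene length was left in for these lists. Its removal moved single fatty acid genes in heart, as given below, so its share in the list values is not known.

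**Figure D4:**
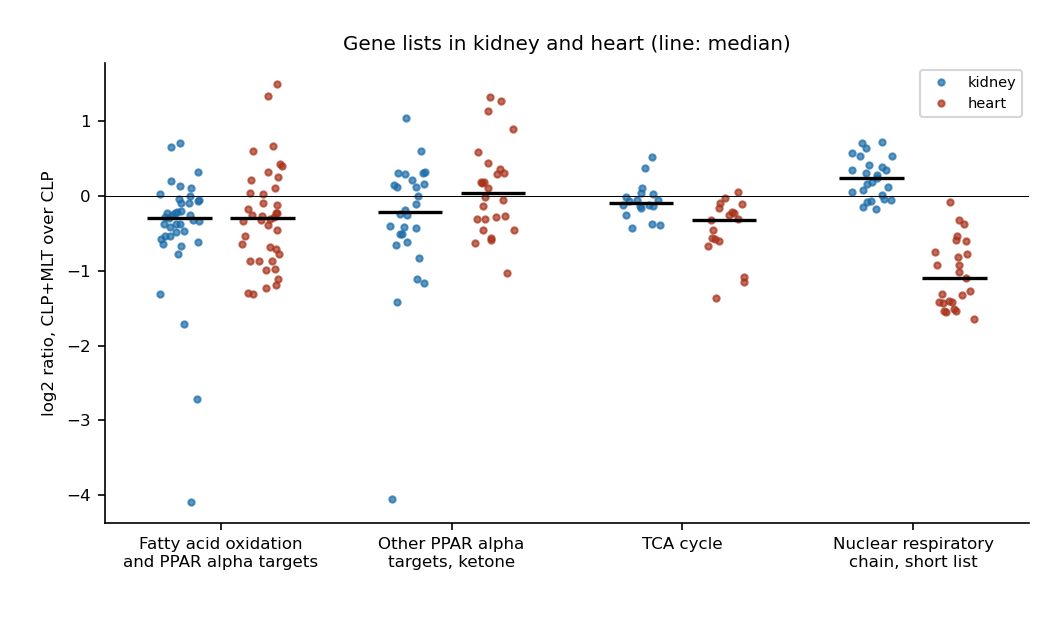
Log2 ratio of CLP+MLT over CLP for the genes of 4 lists in kidney and heart, 1 point per gene and a line at the median; points are spread sideways only for view. The 40 fatty acid genes have medians of −0.29 in both organs, while the respiratory chain genes lie at 0.23 in kidney and −1.09 in heart.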

How the data were processed

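RNA-seq libraries were made after poly-A selection with a NEBNext Ultra kit. The authors trimmed the reads, aligned them to mm10 with HISAT2 2.1.0 and deposited raw counts per gene without normalization; HTSeq is named in the submitters' processing notes, and no source used here gives its version, strand setting or annotation. Rows that name no gene held 65.5% to 72.8% of each file and were left out. Symbols, exon lengths and overlaps came from GENCODE M21, which matched 55141 of 55401 identifiers.

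Genes whose mean was 10 counts or more were kept. Log2 ratios used TMM factors of edgeR 4.0.16 (R 4.3.3) within each organ and a prior count of 0.5, with 95% exact Clopper-Pearson intervals. PCR copies are not independent molecules, so intervals cover counting error only. Levels in CPM used TMM over the 4 libraries, so their ratios differ slightly from the within-organ ratios. The 1.5-fold is that of the study's methods. Kidney and heart were compared with the edgeR quasi-likelihood test (treatment plus tissue, 1 residual degree of freedom, threshold 0.05). Its p-values measure only the spread left among these 4 libraries, which edgeR pools over genes. The SE given is the size of the log2 ratio divided by the square root of the test's F statistic. In simulated counts with a variation of 0.2, the kidney against heart fit over 17059 genes recovered 19 of 194 genes changed 2-fold, with 0 false calls. Over 17071 genes it recovered 188 of 196 changed 4-fold, with 14 false calls. Few genes were changed there and treatment had no effect, whereas 58.3% of genes passed in the data, so these recoveries need not hold for the data.

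The 40 genes and the lists were chosen with earlier results of these data known. Any of the 40 could be named; of the other pathway lists, only genes with an interval wholly beyond 1.5-fold, at most 8 per list and organ, some of which are not reported here; cell type markers named singly beyond their sums and zeros were chosen after their values were seen. Alternatives covered scaling, filters, prior count, mitochondrial and haemoglobin genes, gene length, fold, assumed variations of 0.2 and 0.4, DESeq2 1.42.0, no treatment term and each library left out. Python 3.11.15 was used for the other values.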

Additional observations from a re-analysis of the deposited data

Results flagged for a closer look

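Etfb, the gene for the beta subunit of electron transfer flavoprotein, went in opposite directions past the 1.5-fold in both organs. Its log2 ratio with melatonin against without was 0.70 in kidney (995 and 1017 counts) and −1.30 in heart (1124 and 452 counts). Each ratio rests on 1 library per group, and the difference between the organs was not tested. In kidney the counting interval reaches the 1.5-fold, and library size scaling gave 0.51, below it. In heart the ratio was −1.12 with the trend with gene length removed. A read-through gene covers 53.0% of its exon bases on the same strand. Of 25 respiratory chain genes, 3 were higher by 1.5-fold in kidney. Among them Ndufa1 (0.72 in kidney and −1.42 in heart) and Cox6c (0.70 and −1.54) were also opposite. The share of all genes with this pattern is not given.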

How the results depend on the processing

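With 1 library per group and assumed variation between mice of 0.2 or 0.4 (edgeR's exact test at p of at most 0.01), the lower genes in kidney numbered 4 (Pdk4, Plin2, Plin5 and Ucp3) and 2 (Plin2 and Ucp3), and the higher genes 0 and 0, where 330 and 67 of 16932 genes were lower and 289 and 23 higher. In heart the lower genes numbered 4 (Acaa2, Cpt2, Etfb and Fabp3) and 0, and the higher genes 1 (Slc27a2) and 0, where 370 and 21 of 15871 genes were lower and 292 and 42 higher. With a fold of 2, 0 were higher and 4 lower in kidney and 2 higher and 5 lower in heart. No share over all genes is given for that fold, so these counts cannot be set against it. Library size scaling gave 0 higher and 14 lower in kidney with a median of −0.49, where the median of all genes moved to −0.19. No share over all genes is given for that scaling, so the 14 cannot be set against the shares above. With that scaling the median of heart minus kidney was 0.27. Summed levels were 13432, 11543, 7694 and 5774 CPM in CLP kidney, CLP+MLT kidney, CLP heart and CLP+MLT heart, against 11217, 11014, 8647 and 6448. With kidney RNA taken off (chosen after the data were seen), 2 of the 37 genes left were higher in heart, again with no share over all genes given. A minimum mean of 50 counts turned the median of heart minus kidney to −0.0048 over 38 genes. The other settings for scaling, filter, prior count, mitochondrial genes and gene length kept the counts of genes past 1.5-fold within 1.5 times those reported. Single genes did move in heart when the trend with gene length was removed. Fabp3 was then at −1.05, Acaa2 at −1.20, Etfb at −1.12 and Etfa at 0.52, and Eci1 fell below the 1.5-fold at −0.49.

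In kidney against heart, leaving out each library in turn gave 16 to 18 genes higher in kidney and 7 to 12 higher in heart, the 7 without CLP+MLT kidney; a lone library was then assumed to vary like the pair of the other organ. The fitted log2 ratio changed sign, without passing the test in either fit, for Ppara without CLP heart (−0.15, and from −0.15 to 1.24 over all leave-outs), Mlycd by library size (0.11), Acadvl without CLP kidney (−0.10) or CLP+MLT heart (−0.32; −0.32 to 0.50), Plin2 without CLP kidney (−0.19), and Etfb by library size (0.23), without CLP kidney (0.13) or without CLP heart (0.58; −0.68 to 0.58). Calls were gained under at least 1 setting for Plin2 (2.52 without CLP+MLT kidney), Acadl, Acadm, Acaa2, Crat, Decr1 and Eci2. Calls were lost under at least 1 setting for Acsl1, Hadhb, Eci1, Etfa, Etfdh and Pdk4. No paired analysis was possible because each group had 1 library, so no melatonin comparison could be blocked. In kidney against heart the treatment term sets each kidney beside the heart of its treatment, and without it 16 genes were higher in kidney and 10 in heart. Whether such a pair came from the same mice is not stated.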
